A study of Mus musculus with 6 samples.

Results

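A set of 10 genes that encode inhibitors of cysteine proteases was followed across CAF-1 OFF and HOXA9 OFF cells: the 7 stefin A copies Stfa1, Stfa2, Stfa2l1, Stfa3, BC100530, Gm5483 and Gm5416, and the cystatins Cstb, Cst3 and Cst7. These 10 genes, of 27998 gene columns in the count table, were taken by name, and their levels had been seen when the list was drawn up, so every value of theirs is given as a description. The cells were immortalized granulocyte-macrophage progenitor-like cells (iGMPs) from C57Bl/6 mice (the labels spell the strain C57BI/6) with a Lys-GFP reporter and ER-HOXA9, a HOXA9 fusion that depends on estrogen receptor ligand and keeps the cells self-renewing in medium with β-estradiol and stem cell factor. In the CAF-1 OFF arm, a clone with an IPTG-inducible shRNA against Chaf1b, which encodes part of the chaperone CAF-1, received IPTG while estradiol was kept, whereas in the HOXA9 OFF arm a clone with a control shRNA was deprived of estradiol. Live sorted cells of each arm were profiled by droplet single-cell RNA-seq at 0, 48 and 96 h (1 library each), the 0 h library being uninduced iGMPs in estradiol. The arms are different clones and no library was repeated, so the spread between cultures is unknown, no test between libraries was possible, and all intervals below are 95% intervals that cover counting error only.

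Cystatins are tight-binding inhibitors of papain-like cysteine proteases, above all the lysosomal cathepsins. Stefins, the family's smallest members, lack a secretion signal and stay inside the cell. Mice carry a cluster of duplicated stefin A genes, known for its high expression in neutrophils, and on another chromosome a single stefin B gene (Cstb). Cystatin C (Cst3) is secreted by most cells, and cystatin F (Cst7) is a leukocyte cystatin that reaches lysosomes and restrains cathepsin C, the protease that activates granule serine proteases such as elastase.

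Of the 7 stefin A copies, 6 had a match in the RefSeq annotation of GRCm38.p6, the build of the authors' alignment, and all 6 were on chromosome 16 within 299 kb (chr16:36156811-36455392). On the plus strand lie Stfa2l1 (chr16:36156811-36161948), Gm5483 (Cstdc4 in RefSeq, chr16:36184212-36188111), Gm5416 (Csta3 in RefSeq, chr16:36210403-36217788) and Stfa1 (chr16:36277148-36285371). On the minus strand lie Stfa2 (chr16:36403946-36408363) and Stfa3 (chr16:36450537-36455392). Cstb is on chromosome 10 (chr10:78425670-78427622), and Cst3 (chr2:148871722-148875512, minus strand) and Cst7 (chr2:150570415-150578944, plus strand) are on chromosome 2. BC100530 is given by name only.

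The 120 bases before the start of 5 stefin A copies are shown because they are alike in sequence although the genes differed in level, with Stfa1 at 5353 CPM and Stfa2 at 11.5 CPM in the HOXA9 OFF 48 h library (CPM, transcripts of a gene per 1000000 counted). One of the runs in capitals is TTTAAAA, which resembles a TATA box. The other, AGATAA, is a motif of GATA factors. The stretches are given 5′ to 3′ on each gene's own strand from RefSeq (GRCm38.p6): chr16:36277028-36277147 for Stfa1, chr16:36408364-36408483 for Stfa2, chr16:36156691-36156810 for Stfa2l1, chr16:36455393-36455512 for Stfa3 and chr16:36184092-36184211 for Gm5483.
Stfa1: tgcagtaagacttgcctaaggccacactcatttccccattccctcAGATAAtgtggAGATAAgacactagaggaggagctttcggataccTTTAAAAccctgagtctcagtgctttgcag
Stfa2: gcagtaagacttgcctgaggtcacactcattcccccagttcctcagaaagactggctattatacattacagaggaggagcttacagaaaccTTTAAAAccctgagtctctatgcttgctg
Stfa2l1: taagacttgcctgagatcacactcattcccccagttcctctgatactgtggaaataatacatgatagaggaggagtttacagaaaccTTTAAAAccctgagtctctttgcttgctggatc
Stfa3: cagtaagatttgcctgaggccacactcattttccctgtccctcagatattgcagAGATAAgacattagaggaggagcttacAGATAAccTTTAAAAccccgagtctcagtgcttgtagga
Gm5483: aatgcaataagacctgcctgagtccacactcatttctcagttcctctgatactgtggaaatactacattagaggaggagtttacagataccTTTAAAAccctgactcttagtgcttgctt
Aligned in pairs, these stretches, chosen for their likeness, were 76.6% to 83.6% identical, whereas that of Gm5416 was 36.1% to 38.7% identical to them. Each window ends at the annotated start of its gene. In Gm5416 TTTAAAA and the nearest AGATAA lay further from it than in Stfa1 (-77 against -30 and -111 against -64). Its low identity in this window thus does not show that its upstream sequence is unlike theirs. Among all 6 matched copies, each held TTTAAAA on one strand or the other within 200 bases before its start, at -30 in Stfa1, -29 in Stfa2, -33 in Stfa2l1, -31 in Stfa3, -29 in Gm5483 and -77 in Gm5416, counted to the first base of the match. That run occurred in 6.00% of 27025 mouse promoters of the same length. AGATAA, searched on both strands, occurred 2 times each in Stfa1, Stfa3 and Gm5416 and in none of Stfa2, Stfa2l1 and Gm5483, against 7.98% of promoters with at least 1 match. The C/EBP motif TTGCNNAA was present in Stfa1 and Gm5416 and in 7.47% of promoters, the PU.1 motif GAGGAAG was present in Stfa1 alone of the 6 and in 8.66% of promoters, and the ELF1 motif CCGGAAG was in none of the 6 and in 6.45% of promoters. Cst3 and Cst7 held none of the 5 motifs in this window. A match or its absence describes these letters only, and binding was not measured here.

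The transcripts of the copies are also alike, which bears on how well reads can be told apart. Between the GENCODE M1 coding sequences, Stfa1 and BC100530 were 98.0% identical and Stfa2 and Stfa2l1 96.5%, whereas the other stefin A pairs ranged from 73.4% to 88.4%. Cstb was 51.7% to 60.3% identical to the stefin A copies. Of the 75-base windows along each transcript, the length of the reads, 15.9% in Stfa1 and 10.6% in BC100530 were found letter for letter in another copy, as were 5.79% in Stfa2 and 6.76% in Stfa2l1 and none in Stfa3, Gm5483 and Gm5416. Counts of Stfa1 against BC100530 and of Stfa2 against Stfa2l1 are therefore uncertain. Windows were compared among these 7 copies only, and the Gm5416 model held just its 294 coding bases. Finding none in Stfa3, Gm5483 and Gm5416 thus does not show that all their reads could be told apart. Each copy is given both singly and within the sum of all 7, called the stefin A sum. That sum still leaves out 2010005H15Rik (Csta2 in RefSeq), BC117090 and Gm4758, stefin-like genes that are considered with the other cystatins.

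The count table held 473 to 1510 cells per library after filtering and 3524285 to 5589486 unique molecular identifiers (UMIs, each standing for 1 captured transcript), with a median of 2043.5 (HOXA9 OFF 96 h) to 8660 (HOXA9 OFF 0 h) UMIs per cell. The filter on genes and mitochondrial UMIs removed 66.2% of barcodes at HOXA9 OFF 0 h but 0.198% at HOXA9 OFF 96 h. Levels are UMIs of a gene summed over the cells of a library per 1000000 UMIs (CPM), and since each UMI marks the 3′ end of 1 molecule they were not divided by length. As a check of the labels, Chaf1b gave 35.6 CPM at CAF-1 OFF 0 h, 3.22 CPM at 48 h and 6.49 CPM at 96 h. The HOXA9 OFF libraries had 51.5, 15.3 and 1.13 CPM of it, so the gene was lower at later times in both arms. Only 16 cell barcodes were shared between any pair of libraries, and the 2 CAF-1 OFF cells whose barcode also occurred in a HOXA9 OFF library held 0 stefin A UMIs.

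The stefin A genes were close to silent in uninduced iGMPs and were found at very different levels in the later libraries of the 2 arms. The stefin A sum held 2 UMIs at CAF-1 OFF 0 h (0.475 CPM, interval 0.0575 to 1.71) and 19 UMIs at HOXA9 OFF 0 h (4.53 CPM, 2.73 to 7.08). In CAF-1 OFF cells it was 37.4 CPM at 48 h (209 UMIs, 32.5 to 42.8) and 302 CPM at 96 h (1629 UMIs, 287 to 317). In HOXA9 OFF cells it was 8936 CPM at 48 h (47452 UMIs, 8855 to 9016) and 67583 CPM at 96 h (238182 UMIs, 67312 to 67855), when 6.76% of all UMIs in the library came from these 7 genes. The 6 libraries thus spanned more than 5 orders of magnitude, and no intervals of the 3 time points overlapped within an arm.

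As ratios to the 0 h library of the same arm, the stefin A sum was 78.8-fold higher at CAF-1 OFF 48 h (interval 21.5 to 655) and 636-fold higher at 96 h (176 to 5259), the wide intervals following from the 2 UMIs at 0 h. In HOXA9 OFF cells it was 1971-fold higher at 48 h (1262 to 3273) and 14905-fold higher at 96 h (9544 to 24756). From 48 to 96 h the step was 8.08-fold in CAF-1 OFF cells (6.99 to 9.37) and 7.56-fold in HOXA9 OFF cells (7.49 to 7.64), and these intervals overlapped. At matched times HOXA9 OFF cells held more, by 239-fold at 48 h (209 to 275) and 224-fold at 96 h (213 to 235). At 0 h the HOXA9 OFF clone was already 9.56-fold above the CAF-1 OFF clone (2.31 to 84.6), from 19 UMIs against 2. Without thinning, these UMIs lay in 5 of 473 cells and in 2 of 647 cells. UMIs of the same cell need not be independent, so this interval and those of the folds to 0 h may be too narrow.

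**Figure D1:**
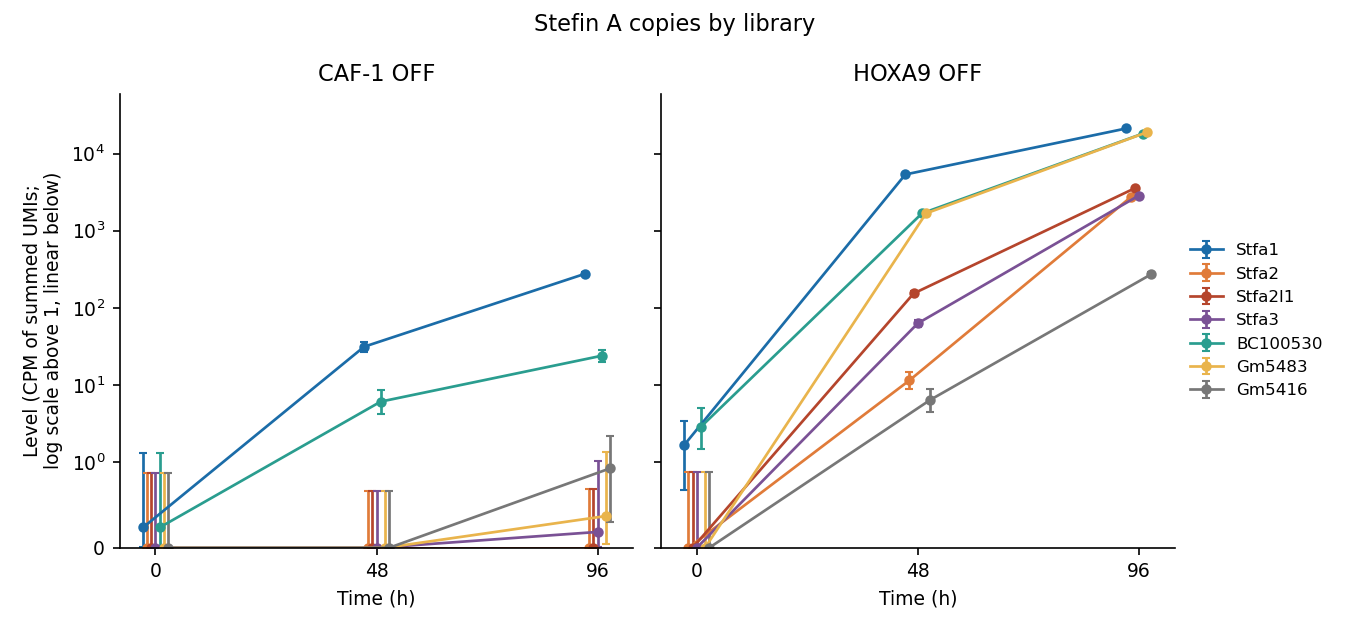
Levels of the 7 stefin A copies (CPM, log scale above 1 and linear below) against time in h, with CAF-1 OFF libraries on the left and HOXA9 OFF libraries on the right; points are single libraries, shifted sideways for clarity, and bars are 95% Poisson intervals. In CAF-1 OFF cells Stfa1 and BC100530 left the bottom of the scale, reaching 277 and 23.9 CPM, whereas all 7 copies did so in HOXA9 OFF cells.

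The copies did not follow one another in equal measure. For Stfa1, which encodes stefin A1, the CAF-1 OFF libraries gave 0.237, 31.3 and 277 CPM in order of time, and the HOXA9 OFF libraries 1.67, 5353 and 21162 CPM. It was the most abundant copy in the 4 libraries after 0 h, and at HOXA9 OFF 96 h ranked 5 among all genes. BC100530, nearly identical to it in coding sequence, gave 0.237, 6.08 and 23.9 CPM in the CAF-1 OFF libraries and 2.86, 1673 and 18153.5 CPM in the HOXA9 OFF libraries. These were the only copies with more than 5 UMIs in any CAF-1 OFF library, and the only copies with a UMI in uninduced iGMPs of either clone.

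Gm5483, another stefin A copy, gave 0, 0 and 0.371 CPM in the CAF-1 OFF libraries, the last from 2 UMIs, and 0, 1676 and 18899 CPM in the HOXA9 OFF libraries, where it ranked 7 among all genes at 96 h. A count of 0 allowed at most 0.712 CPM (3 UMIs) at CAF-1 OFF 0 h, 0.537 CPM at CAF-1 OFF 48 h and 0.716 CPM at HOXA9 OFF 0 h. Against the last of these floors Gm5483 was at least 2340-fold higher at HOXA9 OFF 48 h and at least 26397.5-fold higher at 96 h. Its HOXA9 OFF levels were thus close to those of BC100530, while at CAF-1 OFF 96 h BC100530 had 129 UMIs against its 2.

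Stfa2l1, Stfa3 and Stfa2, the outermost of the 6 placed copies, were mostly seen at 96 h. Over the 3 HOXA9 OFF time points Stfa2l1 gave 0, 153 and 3544 CPM, Stfa3 0, 62.9 and 2852 CPM, and Stfa2 0, 11.5 and 2700 CPM. In CAF-1 OFF cells the 3 genes together had 1 UMI, of Stfa3 at 96 h. Gm5416, the lowest copy at HOXA9 OFF 48 and 96 h, gave 0, 6.40 and 272 CPM in these libraries. Its CAF-1 OFF libraries gave 0, 0 and 0.927 CPM, the last from 5 UMIs, which was above Gm5483, Stfa3, Stfa2 and Stfa2l1 in the same library.

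The step from 48 to 96 h in HOXA9 OFF cells differed among the copies by far more than the counting intervals. It was 3.95-fold for Stfa1 (3.90 to 4.01), 10.9-fold for BC100530 (10.6 to 11.1) and 11.3-fold for Gm5483 (11.0 to 11.5). Stfa2l1 was 23.1-fold higher at 96 h than at 48 h (21.5 to 24.8), Gm5416 42.5-fold (30.2 to 61.8), Stfa3 45.3-fold (40.7 to 50.7) and Stfa2 235-fold (183 to 308). The 4 copies that were highest at 48 h (Stfa1, Gm5483, BC100530 and Stfa2l1) thus had the 4 smallest steps, although the step itself is taken from the 48 h level.

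The make-up of the stefin A sum therefore differed between the libraries. Stfa1 gave 83.7% of the stefin A UMIs at CAF-1 OFF 48 h (interval 78.0 to 88.5) and 91.6% at 96 h (90.1 to 92.9), with nearly all of the rest from BC100530. Among HOXA9 OFF stefin A UMIs Stfa1 gave 59.9% at 48 h (59.5 to 60.3) and 31.3% at 96 h (31.1 to 31.5). Gm5483 gave 0.123% at CAF-1 OFF 96 h (0.0149 to 0.443), against 18.8% (18.4 to 19.1) and 28.0% (27.8 to 28.1) in the HOXA9 OFF libraries at 48 and 96 h. The share of Stfa1 thus moved up with time in CAF-1 OFF cells and down in HOXA9 OFF cells. With BC100530 and Stfa1 summed, to set aside reads that fit both, the pair held all 209 stefin A UMIs at CAF-1 OFF 48 h and all of the 1629 at 96 h but 1 of Stfa3, 2 of Gm5483 and 5 of Gm5416.

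**Figure D2:**
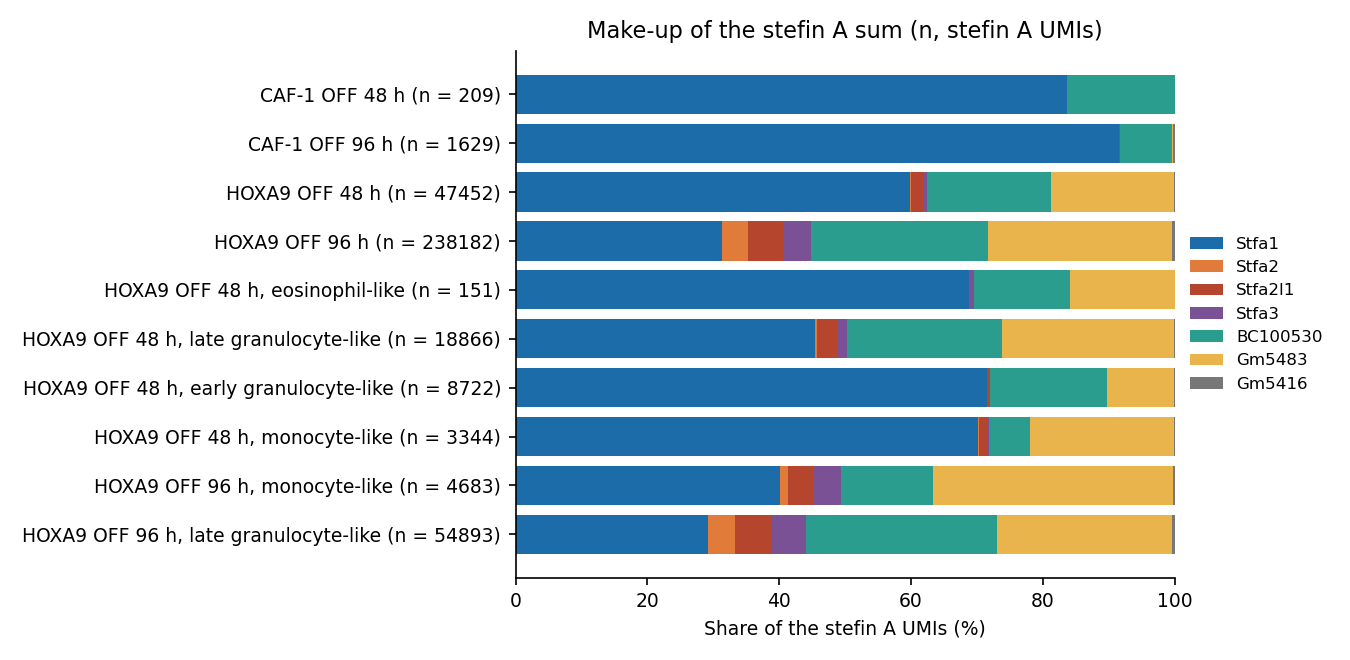
Share of the stefin A UMIs from each of the 7 copies (%, stacked to 100), for the 4 libraries with at least 100 such UMIs and for the named cell clusters with at least 100; n gives the stefin A UMIs behind each bar. Stfa1 and BC100530 made up nearly the whole bar in CAF-1 OFF cells, and Gm5483 filled 10.2% to 36.4% of each HOXA9 OFF bar.

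The 3 cystatins outside the stefin A cluster were already expressed in uninduced iGMPs. Cstb, the cytosolic and nuclear inhibitor stefin B, gave 139, 229 and 230 CPM in the CAF-1 OFF libraries, in order of time, and 157, 656 and 837 CPM in the HOXA9 OFF libraries. It was 1.65-fold higher at CAF-1 OFF 48 h than at 0 h (1.5 to 1.82) and had a ratio of 1.01 between 96 and 48 h (0.929 to 1.09), which does not tell a direction. After estradiol withdrawal it was 4.18-fold higher at 48 h (3.85 to 4.55) and 5.34-fold higher at 96 h (4.90 to 5.82).

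Cst3, cystatin C, was the highest of these 3 genes in every library. The CAF-1 OFF libraries gave 547, 689 and 806 CPM and the HOXA9 OFF libraries 458, 1018 and 1333 CPM. Its fold over 0 h was 1.26 (1.20 to 1.33) and 1.47 (1.40 to 1.55) in CAF-1 OFF cells, and 2.22 (2.11 to 2.34) and 2.91 (2.76 to 3.07) in HOXA9 OFF cells.

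Cst7, cystatin F, was far lower at later times in HOXA9 OFF cells and only slightly higher in CAF-1 OFF cells. At 0 h the CAF-1 OFF clone was 1.18-fold above the HOXA9 OFF clone (1.09 to 1.27). The later folds of the CAF-1 OFF clone over its own 0 h library were about as large. The CAF-1 OFF libraries gave 363, 425 and 440 CPM, 1.17-fold (1.10 to 1.25) and 1.21-fold (1.14 to 1.29) above 0 h, with a ratio of 1.04 between 96 and 48 h (0.978 to 1.10). The HOXA9 OFF libraries gave 308, 130 and 9.65 CPM, 2.36-fold lower at 48 h (2.15 to 2.59) and 31.9-fold lower at 96 h (22.7 to 46.3), when 34 UMIs remained. At 96 h CAF-1 OFF cells thus held 45.6-fold more Cst7 than HOXA9 OFF cells (32.5 to 66.0).

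**Figure D3:**
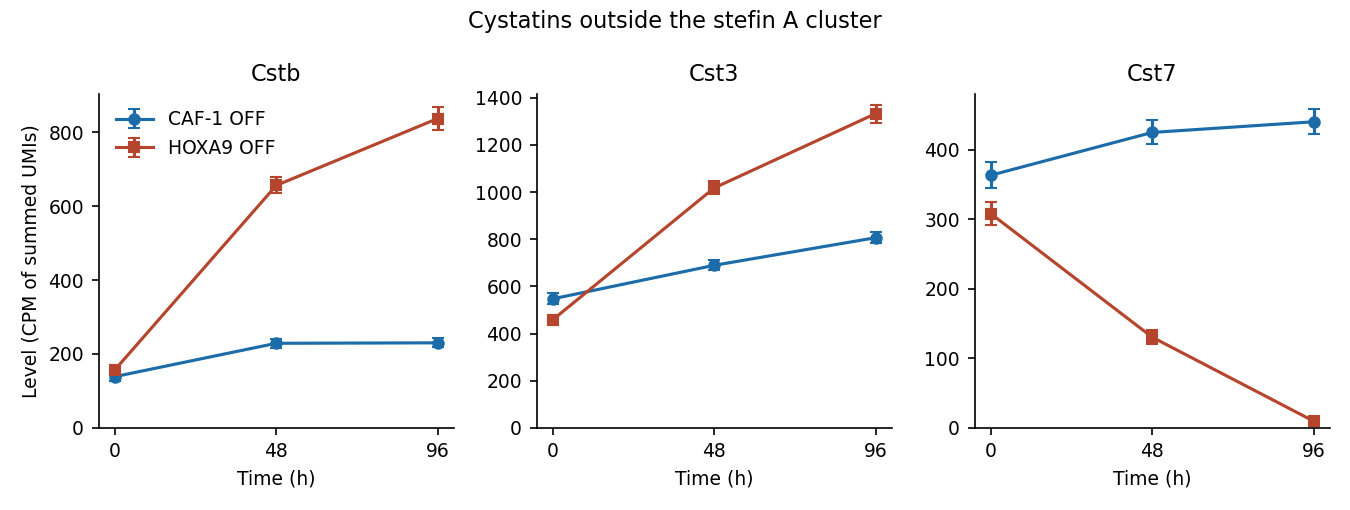
Levels of Cstb, Cst3 and Cst7 (CPM, linear scale from 0) against time in h, with circles for CAF-1 OFF and squares for HOXA9 OFF libraries; each point is 1 library and bars are 95% Poisson intervals. Cstb and Cst3 were higher in the HOXA9 OFF libraries at 48 and 96 h, and Cst7 was lower there.

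For counts over many genes, a gene was called higher or lower when its log2 ratio of CPM, after adding 10 CPM to both levels, was at least 2-fold. Among 4789 genes that averaged 20 CPM or more, 2.76% were higher by that size at CAF-1 OFF 48 h than at 0 h and 0.0418% lower, and of the 10 genes only Stfa1 was, being higher. The CAF-1 OFF 96 h library had 5.22% of genes higher and 0.856% lower, and Stfa1 and BC100530 were higher. At HOXA9 OFF 48 h 13% of all genes were higher and 19.6% lower, and 8 of the 10 genes were higher, with Gm5416 short of the size and Cst7 lower. At HOXA9 OFF 96 h 18.1% were higher and 39.8% lower, and 9 of the 10 were higher and Cst7 lower. Over the 10 genes the median log2 ratio was 0.11, 0.20, 2.43 and 8.12 in these 4 comparisons, against 0.0, -0.08, -0.23 and -0.56 over all genes tested. From 48 to 96 h in CAF-1 OFF cells, 0.71% of genes were higher and 0.167% lower, and Stfa1 and BC100530 were higher. The same step in HOXA9 OFF cells had 6.56% higher and 17.8% lower, with the 7 stefin A copies higher and Cst7 lower. Between the arms at 0 h, 0.752% of genes were higher and 0.146% lower in the HOXA9 OFF clone and none of the 10 genes was past the size. Between the arms at 48 h, 10.0% were higher and 19.9% lower in HOXA9 OFF cells, and 7 of the 10 were higher (6 stefin A copies and Cstb) and Cst7 lower. At 96 h 15.6% were higher and 37.8% lower, and 8 of the 10 were higher (the 7 copies and Cstb) and Cst7 lower. All 10 genes passed the minimum level, but 7 did so without HOXA9 OFF 96 h, Stfa2, Stfa3 and Gm5416 passing through that library, and because the members were picked with these values known the shares say nothing independent about them.

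Per cell, stefin A transcripts were found in few CAF-1 OFF cells and in nearly every late HOXA9 OFF cell. With each cell thinned to 1300 UMIs, so that depth did not differ, 0 of 633 cells held a stefin A UMI at CAF-1 OFF 0 h. At this depth that allows up to 0.474% of cells with a UMI. The share was 3.75% of 907 cells at CAF-1 OFF 48 h (2.61 to 5.20) and 18.1% of 902 cells at 96 h (15.6 to 20.7). It was 0.636% of 472 cells at HOXA9 OFF 0 h (0.131 to 1.85), 73.5% of 1376 cells at 48 h (71.1 to 75.8) and 98.3% of 1376 cells at 96 h (97.4 to 98.9). Without thinning the shares were 0.309%, 7.12% and 32.3% in CAF-1 OFF cells and 1.06%, 85.3% and 99.6% in HOXA9 OFF cells. The thinning left out 14, 20 and 9 cells of the CAF-1 OFF libraries and 1, 28 and 134 cells of the HOXA9 OFF libraries, in order of time.

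The number of stefin A UMIs in a thinned cell also had a wide range. At HOXA9 OFF 96 h the median cell held 109 of 1300, or 8.38% of its UMIs, with a highest cell of 206. At HOXA9 OFF 48 h the median was 4 and the highest 132. At CAF-1 OFF 96 h the median was 0 and the highest 14, so that the cell with the most stefin A there stayed below the median HOXA9 OFF cell of the same time.

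For Cstb, Cst3 and Cst7 the shares of thinned cells with a UMI followed the levels. In CAF-1 OFF libraries Cst7 was detected in 37.8% (34.0 to 41.7), 41.2% (38.0 to 44.5) and 39.4% (36.2 to 42.6) of cells, in order of time, and in 33.7% (29.4 to 38.1), 12.8% (11.1 to 14.7) and 0.509% (0.205 to 1.05) of HOXA9 OFF cells. Cstb was detected in 17.2% (14.4 to 20.4) of cells at CAF-1 OFF 0 h and 26.6% (23.7 to 29.6) at 96 h, and in 21.4% (17.8 to 25.4) at HOXA9 OFF 0 h and 58.8% (56.1 to 61.4) at 96 h. For Cst3 the CAF-1 OFF shares at 0 and 96 h were 48.8% (44.9 to 52.8) and 65.3% (62.1 to 68.4), and the gene was detected in 46.2% (41.6 to 50.8) and 72.9% (70.5 to 75.2) of HOXA9 OFF cells. Without thinning, Cst7 was in 84.1%, 87.8% and 85.3% of CAF-1 OFF cells and in 89.2%, 32.0% and 1.52% of HOXA9 OFF cells.

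To see which cells carried the transcripts, the cells of each library were clustered on variable genes without the 10 genes and without 2010005H15Rik, BC117090 and Gm4758. A cluster of at least 20 cells was named when 3 or more markers of 1 cell type were at least 2-fold above the rest of its library, these were at least 2 times as many as of any other list, and the highest-ranked marker belonged to that list. At HOXA9 OFF 48 h the late granulocyte-like cluster (192 cells, led by Ltf, S100a9 and Lcn2) held the most stefin A, at 38326 CPM (37781 to 38877), and all 184 of its thinned cells had a stefin A UMI. The early granulocyte-like cluster (241 cells, with Elane and Mpo, but with replication genes such as Hells, Cdt1 and Mcm2 also among its leading genes) was at 8601 CPM (8421 to 8783) and the monocyte-like cluster (253 cells, with Csf1r and Ccr2) at 4244 CPM (4101 to 4390). The unnamed cluster 2, led by Clec4b2, was at 9266 CPM, and cluster 4, led by cell cycle genes such as Top2a, at 5949 CPM. The late granulocyte-like cells made up 13.7% of the library's cells and held 39.8% of its stefin A UMIs.

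Eosinophil-like cells (198 cells, led by Prg2 and Epx) and mast cell or basophil-like cells (44 cells, with Cma1 and Ms4a2) were lowest among the named clusters, at 224 CPM (190 to 263) and 228 CPM (156 to 322). A stefin A UMI was found in 21.6% of thinned eosinophil-like cells (15.9 to 28.3) and in 31.7% of mast cell or basophil-like cells (18.1 to 48.1). Their median depths were 3312.5 and 2483 UMIs per cell, against 2534.5 in the late granulocyte-like cluster. Whether these transcripts came from the cells themselves or from free RNA in droplets was not tested. The 5 clusters at 4244 CPM or more, with shares from 73.7% to 100%, were above the eosinophil-like and mast cell or basophil-like clusters. S100a8 and S100a9, abundant neutrophil transcripts, were together at 135 CPM in the eosinophil-like cluster and at 32488 CPM in the late granulocyte-like cluster, with 1.66 and 1.18 stefin A UMIs for each of their UMIs.

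In the HOXA9 OFF 96 h library, 4 of the 6 clusters were at 78674 CPM or above, and every thinned cell in them held a stefin A UMI. They were the late granulocyte-like cluster (89920 CPM, with Ltf and Ngp), cluster 4 led by Asprv1 and Retnlg (98561 CPM), cluster 1 led by the interferon-response genes Ifit1 and Isg15 (78674 CPM) and cluster 6 (81935 CPM). The monocyte-like cluster of 142 cells was at 8584 CPM (8340 to 8833) and the unnamed cluster 5, led by Prg2 and Prg3, at 4271 CPM (4053 to 4498). In cluster 5 the early granulocyte markers Elane, Mpo, Prtn3, Ctsg and Ms4a3 were also at least 2-fold up. S100a8 and S100a9 were together at 16116 CPM in the monocyte-like cluster and 4848 CPM in cluster 5. There were 0.533 and 0.881 stefin A UMIs for each of their UMIs, against 0.573 to 0.614 in the 4 high clusters. Whether stefin A transcripts in the monocyte-like cluster and cluster 5 came from the cells themselves or from free RNA in droplets was not tested. A stefin A UMI was held by 97.2% of thinned monocyte-like cells (92.9 to 99.2) and 80.8% of thinned cluster 5 cells (71.9 to 87.8). The lower bounds of the 4 high clusters were 97.7% to 99.1%. The share thus set cluster 5 apart from them but not the monocyte-like cluster, while the levels of both were far below those of the 4 high clusters.

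**Figure D4:**
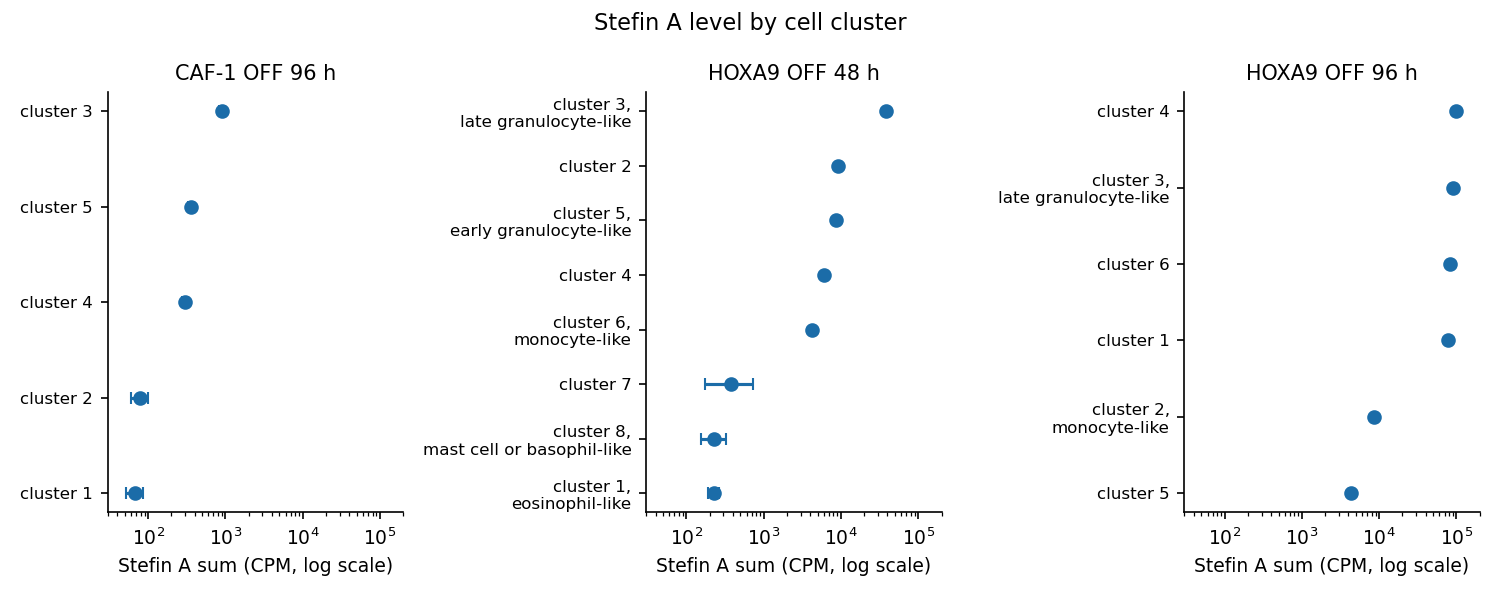
Stefin A sum (CPM, log scale) in each cell cluster of CAF-1 OFF 96 h, HOXA9 OFF 48 h and HOXA9 OFF 96 h, ordered by level; bars are 95% Poisson intervals, mostly smaller than the points. The late granulocyte-like cluster stood highest at HOXA9 OFF 48 h (38326 CPM) and the unnamed cluster 4 at 96 h (98561 CPM), the eosinophil-like and mast cell or basophil-like clusters were lowest of those named at 48 h, and the CAF-1 OFF clusters reached from 67.3 to 905 CPM.

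In CAF-1 OFF cells no cluster could be named, and the stefin A UMIs were uneven among clusters. At 48 h cluster 3 (204 cells, led by Chil3, Ly6c2 and Fcnb, genes of granulocyte and monocyte precursors) held 188 of the 209 stefin A UMIs, at 162 CPM (139 to 186), while the other 3 clusters were at 0.857 to 10.8 CPM. At 96 h the highest was cluster 3 (127 cells, led by Fcnb and Mogat2), at 905 CPM (829 to 987), with a stefin A UMI in 42.9% of thinned cells (34.1 to 52.0). The late granulocyte markers S100a8, Camp and Itgam were 2-fold up in it, but Fcnb, a marker of early granulocytes, led it, so it stayed unnamed. Cluster 2, led by Prg2 and Prg3, was at 77.9 CPM (60.8 to 98.5) with a share of 7.19% (3.64 to 12.5), and cluster 1 at 67.3 CPM (51.7 to 86.1) with a share of 6.32% (3.31 to 10.8). The median depth of these 3 clusters was 4291, 5906 and 4734 UMIs per cell. The 2 remaining clusters, 4 with mitotic genes and 5 with S phase genes, were at 299 and 362 CPM. The highest and lowest clusters thus differed by over 10-fold, beyond counting error.

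Among thinned CAF-1 OFF cells at 96 h, the 163 cells with a stefin A UMI and the 739 without had median depths of 6058 and 5965 UMIs. Elane, encoding neutrophil elastase, was detected in 79.1% of the former (72.1 to 85.1) and 54.0% of the latter (50.3 to 57.6), and Fcnb in 20.9% (14.9 to 27.9) and 5.68% (4.13 to 7.60). Cpa3, a mast cell carboxypeptidase, was in 68.1% (60.4 to 75.2) and 90.4% (88.0 to 92.4). Cst7 was in 29.4% of cells with a stefin A UMI (22.6 to 37.1) and 41.5% of those without (38.0 to 45.2), whereas Cstb was in 27.6% (20.9 to 35.1) and 26.4% (23.2 to 29.7) and Cst3 in 66.3% (58.4 to 73.5) and 65.1% (61.5 to 68.5). Pf4, a megakaryocyte chemokine gene, was in 86.5% (80.3 to 91.3) and 82.5% (79.6 to 85.2). Of the 10 genes compared in this way, the intervals were apart for 4 (Elane, Fcnb, Cpa3 and Cst7) and overlapped for 6 (Cstb, Cst3, Pf4, Lcn2, Cd34 and Prg2). The 10 were picked genes, and the share of all genes with intervals apart was not computed. These counts therefore do not show that intervals apart were unusual. At 48 h the 34 cells with a stefin A UMI held Elane in 85.3% (lower bound 68.9), against 38.0% of the 873 without (34.8 to 41.3), and Cst7 in 26.5% (12.9 to 44.4) against 41.8% (38.5 to 45.2). Pf4 was in 76.5% (58.8 to 89.3) and 29.7% (26.7 to 32.8) of these cells, and Cstb in 44.1% (27.2 to 62.1) and 24.2% (21.4 to 27.2). At that time the intervals were apart for 5 of the 10 genes (Elane, Lcn2, Pf4, Cd34 and Cstb), Elane being apart at both times. Lcn2 was in 47.1% of cells with a stefin A UMI and 10.7% of those without at 48 h. At 96 h it was in 48.5% (40.6 to 56.4) and 37.2% (33.7 to 40.8). Cd34 was in 26.5% and 61.2% at 48 h, and in 47.9% (40.0 to 55.8) and 59.0% (55.4 to 62.6) at 96 h. Lcn2 and Cd34 thus went the same way at both times, and their intervals overlapped only slightly at 96 h.

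The 19 stefin A UMIs of HOXA9 OFF 0 h were also not spread evenly. Cluster 4 of that library, 43 cells led by Elane and Prg2, held 18 of them (7 of Stfa1 and 11 of BC100530), at 50.3 CPM (29.8 to 79.5). Its other 4 clusters together held 1. In the whole library these UMIs lay in only 5 of 473 cells without thinning, so the interval may be too narrow.

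The copies differed in make-up between cell clusters as well. Within the HOXA9 OFF 48 h library Stfa1 gave 71.5% of stefin A UMIs in the early granulocyte-like cluster (70.5 to 72.4), 70.2% in the monocyte-like cluster (68.6 to 71.8) and 45.4% in the late granulocyte-like cluster (44.7 to 46.1). Stfa2l1 gave 0.436% in the early (0.308 to 0.598) and 3.12% in the late granulocyte-like cluster (2.88 to 3.38), and Stfa2 had 0 UMIs in the early cluster and 58 of the library's 61 in the late cluster. The late granulocyte-like cluster at 48 h thus lay between the early one and the 96 h library, in which Stfa1 gave 31.3%.

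BC100530 and Gm5483 had 8885 and 8898 UMIs at HOXA9 OFF 48 h and 63978 and 66607 at 96 h, yet were unequal in some clusters. Of the UMIs of the pair, BC100530 held 63.3% in early granulocyte-like cells at 48 h (61.3 to 65.2) and 47.5% in late granulocyte-like cells (46.4 to 48.5), but 22.0% in monocyte-like cells (19.4 to 24.8). At 96 h it held 27.7% in monocyte-like cells (25.9 to 29.5) and 52.2% in late granulocyte-like cells (51.7 to 52.8), and from 47.0% to 51.2% in the 4 other clusters. The low share of BC100530 in monocyte-like cells was therefore seen in both libraries, which come from the same clone. At 96 h the library as a whole had BC100530 at 26.9% and Gm5483 at 28.0% of its stefin A UMIs, against 13.9% and 36.4% in the monocyte-like cluster, so the mix in these cells was not that of the library.

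**Figure D5:**
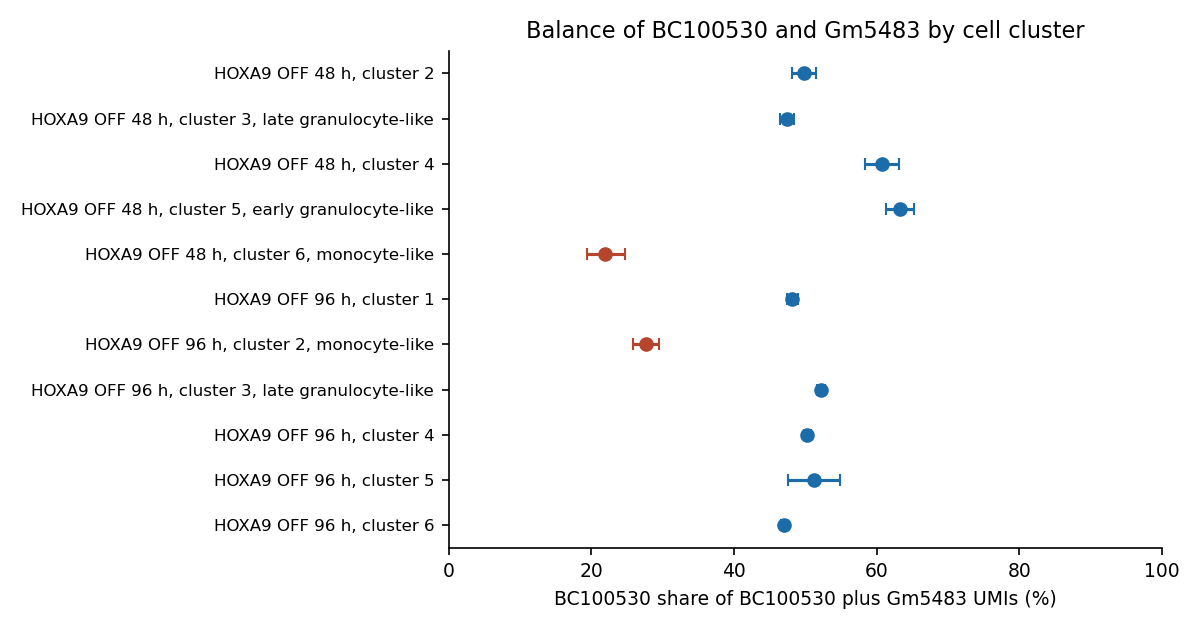
Share of BC100530 in the summed UMIs of BC100530 and Gm5483 (%), for each cluster of the HOXA9 OFF 48 h and 96 h libraries with at least 100 such UMIs; bars are 95% exact binomial intervals and monocyte-like clusters are in red. The monocyte-like clusters sat at 22.0% and 27.7%, below all others (47.0% to 63.3%).

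Cstb, Cst3 and Cst7 had their own cluster patterns. Apart from a cluster of 9 cells, Cst3 at HOXA9 OFF 48 h was highest in monocyte-like cells, at 1476 CPM, against 695 CPM in late granulocyte-like cells, and at 96 h it was at 3365 and 716 CPM in these clusters. Cstb was at 916 CPM in monocyte-like and 333 CPM in eosinophil-like cells at 48 h, and at 1404 CPM in monocyte-like cells at 96 h. Cst7 ran from 364 CPM in mast cell or basophil-like cells and 210 CPM in eosinophil-like cells to 166 CPM in early granulocyte-like, 41.9 CPM in monocyte-like and 24.4 CPM in late granulocyte-like cells at 48 h. At 96 h the late granulocyte-like cluster was at 1.64 CPM and the unnamed cluster 5, with Prg2 and early granulocyte markers, at 68.4 CPM.

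Marker lists of cell types also differed between the libraries. The 11 late granulocyte markers summed to 33.9, 719 and 1205 CPM in CAF-1 OFF cells, where 4, 10 and 9 of them had a UMI, Ltf being at 0 throughout and Ly6g at 0 and 96 h. They summed to 29.4, 10464 and 151142 CPM in HOXA9 OFF cells, with 5, 11 and 11 detected. The 8 eosinophil markers summed to 1481, 19339 and 3288 CPM in HOXA9 OFF cells and to 228, 481 and 1265 CPM in CAF-1 OFF cells. At CAF-1 OFF 96 h 4 of them had a UMI, with Epx, Ear1, Ear2 and Ear6 at 0, whereas all 8 did at HOXA9 OFF 48 and 96 h. In order of time, the 8 progenitor markers gave 1514, 1495 and 1307 CPM in CAF-1 OFF cells and 1411, 185 and 59.0 CPM in HOXA9 OFF cells. The early granulocyte markers gave 6452, 9053 and 12997 CPM in CAF-1 OFF cells and 5584, 5612 and 193 CPM in HOXA9 OFF cells, and the monocyte markers stayed within 437 to 672 CPM in all 6 libraries. Mast cell or basophil markers summed to 287 CPM at CAF-1 OFF 0 h and 4050 CPM at 96 h, and to 829 and 85.1 CPM at these times in HOXA9 OFF cells. Megakaryocyte markers summed to 51.0 and 2721 CPM in the former arm and to 39.6 and 33.8 CPM in the latter. Pf4 alone gave 2481 CPM of the sum at CAF-1 OFF 96 h, where Gp1bb was at 0. Erythroid markers went from 160 to 390 CPM and lymphoid markers from 54.1 to 322 CPM in CAF-1 OFF cells, and to 12.8 and 1.42 CPM at HOXA9 OFF 96 h. At CAF-1 OFF 96 h Cd3e and Il7r of the lymphoid markers, Car1 of the erythroid, and Cma1 and Tpsb2 of the mast cell or basophil markers were at 0. The part of these changes in the levels of the 10 genes was not tested. In the late granulocyte-like clusters, which were made in each library separately, all thinned cells held a stefin A UMI at both times, and the median number per thinned cell was 48 at HOXA9 OFF 48 h and 122 at 96 h.

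Among other members of the cystatin family, 2010005H15Rik, a stefin of the same cluster on chromosome 16, followed the late copies: it had 0, 0 and 24 UMIs in the CAF-1 OFF libraries and 0, 223 and 4624 CPM in the HOXA9 OFF libraries. BC117090 gave 0, 0 and 1 UMIs in the CAF-1 OFF libraries and 0, 14.1 and 116 CPM in the HOXA9 OFF libraries, and Gm4758 at most 8 UMIs in any library. Of 18 cystatin genes on a list of further family members, 15 were in the table and 4 had any UMI, 2010005H15Rik among them, and it was the only one higher by 2-fold over 0 h, at HOXA9 OFF 48 h and 96 h. It was also the only one to reach the minimum of 20 CPM set for all genes tested, of which 13% and 18.1% were higher at these times. Cst6, which encodes a secreted cystatin, had at most 5 UMIs in a library.

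The summed transcripts of papain-like cathepsins and legumain were below those of stefin A at HOXA9 OFF 48 and 96 h. Of 11 papain-like cathepsin and legumain genes, none was past the 2-fold size, with 10 CPM added, at CAF-1 OFF 48 or 96 h, where Ctsb came nearest (log2 ratio 0.98 at 96 h). Among all genes tested, 2.76% and 5.22% were higher at these times and 0.0418% and 0.856% lower, so none of 11 is near the share of all genes. After 48 h without estradiol 3 were higher (Ctsb, Ctsc and Ctss) and Lgmn, which encodes the asparaginyl endopeptidase legumain, was lower, and at 96 h 5 were higher (Ctsb, Ctsc, Ctsl, Ctss and Lgmn). These counts stand against the 13% higher and 19.6% lower at 48 h and the 18.1% and 39.8% at 96 h among all genes tested, for which only 6 of the 11 genes reached the minimum of 20 CPM. Over these 6 genes the median log2 ratio was 0.96 and 2.18 at these times, against -0.23 and -0.56 over all genes tested. It was 0.17 and 0.73 over the 10 genes of the list with any UMI, some of them near 0 CPM. Ctsc, which encodes cathepsin C, the target of cystatin F, was 3.1-fold higher at HOXA9 OFF 48 h (2.69 to 3.58) and 5.21-fold higher at 96 h (4.53 to 6.02) in the same libraries in which Cst7 was lower. Ctss, encoding cathepsin S, was 387-fold higher at 96 h (177 to 1055), from 6 UMIs at 0 h.

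Summed over the 11 protease genes, levels were 368, 616 and 584 CPM in CAF-1 OFF cells and 396, 920 and 1730 CPM in HOXA9 OFF cells. Per protease UMI there were 0.00129, 0.0607 and 0.517 stefin A UMIs in CAF-1 OFF cells and 0.0114, 9.72 and 39.1 in HOXA9 OFF cells. Cstb kept close to this protease sum in CAF-1 OFF cells, at 0.377, 0.371 and 0.394 UMIs per protease UMI, and was at 0.396, 0.713 and 0.484 in HOXA9 OFF cells. Cst7 went from 0.777 to 0.142 and 0.00558 per protease UMI in HOXA9 OFF cells. Of 8 genes of the calpain system, another class of cysteine proteases, Capn1 and the calpain inhibitor gene Cast were higher by 2-fold at HOXA9 OFF 48 h, and Capns1 in addition at 96 h, and none was past that size in CAF-1 OFF cells. Among all genes tested, 13% and 18.1% were higher at HOXA9 OFF 48 and 96 h. At CAF-1 OFF 48 and 96 h 2.76% and 5.22% were higher, so finding none among so few genes is near the share of all genes. Only Capn1 and Capns1 of the 8 reached the 20 CPM minimum, Cast being below it. At HOXA9 OFF 48 and 96 h the median log2 ratio was 1.10 and 1.39 over Capn1 and Capns1, and 0.12 and 0.21 over all 8.

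By Pearson's r of log2 levels over the 6 libraries, the genes most like the stefin A sum were Pdlim2 (0.999), Vsir (0.997) and Lgals3 (0.996), the last encoding galectin-3. Vsir gave 3.32, 16.8 and 33.7 CPM in the CAF-1 OFF libraries and 4.06, 189 and 333 CPM in the HOXA9 OFF libraries, a much narrower range than that of stefin A. Those most like Cstb were Rhog, Aldh3b1 and Gabarap (all 0.999), those most like Cst3 were Ubash3b (0.998), Pqlc1 (0.996) and Nfkbia (0.993), and those most like Cst7 were Bsg (1.00), Itgb3bp (0.999) and Txndc12 (0.999). Among the members r was 0.983 between the stefin A sum and Cstb, 0.967 with Cst3 and -0.855 with Cst7. These values describe 6 libraries that follow the same time points, and they carry no test.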

How the data were processed

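The authors sorted live cells, prepared 10x Chromium 3′ (v2) libraries and aligned the reads to GRCm38 (mm10 per the labels) with Cell Ranger, for which the labels list version 3.0.1; they deposited whole-number UMI counts per gene and barcode (7821 barcodes, 27998 genes). Libraries were told apart by the barcode suffixes given in the labels. As in the study's methods, cells with 200 to 6000 genes and at most 10% mitochondrial UMIs were kept (5872 cells). No doublets were removed in the main values; Scrublet called 125 cells, which were left out in an alternative. UMIs were summed per library, and log2 ratios used a pseudocount of 10 CPM, which understates changes of low genes. Intervals are 95% exact Poisson or Clopper-Pearson intervals, and a count of 0 was read as at most 3 UMIs. Amplification copies were removed through the UMIs, so intervals and floors cover counting error only. Ratios were tested on simulated data. Clusters are Leiden clusters (scanpy 1.11.5, resolution 0.5, 2000 variable genes, 20 components) per library. Pairwise identities came from global alignments (biopython 1.88) of RefSeq promoters and GENCODE M1 transcripts, the latter of an older build and used for sequence only. The members, gene lists and rules were chosen with earlier results of these data known. Genes named are the members, the cystatin, cathepsin and calpain lists, the 3 genes most like each pattern, and markers; other cluster leaders were chosen after their values were seen.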

Additional observations from a re-analysis of the deposited data

Results flagged for a closer look

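Cst7 was the only one of the 10 genes whose log2 ratios to 0 h had opposite signs in the arms, those in CAF-1 OFF cells being small. Its log2 ratio to 0 h was 0.22 in CAF-1 OFF cells and -1.18 in HOXA9 OFF cells at 48 h, a difference of -1.40 (HOXA9 OFF minus CAF-1 OFF), and 0.27 and -4.02 at 96 h, a difference of -4.29. With 1 library per group the difference was not tested.

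Barcodes removed by the filter on genes and mitochondrial UMIs were not used in the report. In CAF-1 OFF 96 h, 155 removed barcodes held the stefin A sum at 90.6 CPM (58.1 to 135), against at most 5.50 CPM (3 UMIs) in the removed barcodes of CAF-1 OFF 0 h, where 0 UMIs were found. In HOXA9 OFF 48 h, 193 removed barcodes were at 3217 CPM (2977 to 3471), and in HOXA9 OFF 96 h the 3 removed barcodes were at 35624 CPM (30455 to 41418), against at most 3.35 CPM (3 UMIs) in those of HOXA9 OFF 0 h, where 0 UMIs were found. All 3 values were lower than those of the kept cells of the same library.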

How the results depend on the processing

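No paired analysis was possible because each group is 1 library, and for the same reason no replicate could be left out. No ratio to 0 h of the stefin A sum or of a single member changed direction under the alternatives run. Among the ratios between 96 and 48 h and between the arms, for which alternatives were added after seeing the data, 3 did. Without mitochondrial and ribosomal protein genes in the total, the log2 ratios of Cstb and Cst3 from 48 to 96 h in HOXA9 OFF cells went from 0.35 to -0.05 and from 0.39 to -0.02, and without Scrublet calls that of Cstb in CAF-1 OFF cells went from 0.01 to -0.01. TMM and median-of-ratios scaling moved the median log2 ratio of all genes by 0.25 and 0.20 at HOXA9 OFF 48 h and by 0.38 and 0.44 at 96 h, and leaving mitochondrial and ribosomal protein genes out of the total moved it by -0.38 at 96 h.

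The log2 ratio of the stefin A sum to 0 h came to 2.18 at CAF-1 OFF 48 h, 4.90 at CAF-1 OFF 96 h, 9.27 at HOXA9 OFF 48 h and 12.18 at HOXA9 OFF 96 h. In the same order it was 4.70, 7.68, 10.66 and 13.58 with a pseudocount of 1 CPM and 0.79, 2.80, 7.36 and 10.28 with 50 CPM. Leaving those genes out of the total gave 2.60, 5.42 and 9.63 in the first 3 comparisons. At HOXA9 OFF 48 and 96 h TMM gave 9.48 and 12.58, and median-of-ratios scaling gave 12.66 at 96 h. Adding 2010005H15Rik, BC117090 and Gm4758 to the sum, chosen after seeing the data, gave 4.92 at CAF-1 OFF 96 h and 12.28 at HOXA9 OFF 96 h.

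The count of members at least 2-fold higher at CAF-1 OFF 48 h was 1, and became 2 with a pseudocount of 1 CPM, 0 with 50 CPM and 3 with a size of 1.5-fold. At CAF-1 OFF 96 h it went from 2 to 1 with 50 CPM and with a size of 4-fold, and at HOXA9 OFF 48 h from 8 to 5 with a size of 4-fold.

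The share of cells with a stefin A UMI depended on depth. At CAF-1 OFF 48 h it was 7.12% not thinned, 1.10% with at least 2 UMIs and 3.15% as the mean over all draws of 1300 UMIs, chosen after seeing the data, against 3.75% in the draw used. At CAF-1 OFF 96 h it was 32.3% not thinned, 25.5% with cells thinned to 2600 UMIs and 8.87% with at least 2 UMIs. For HOXA9 OFF 48 h the settings of CAF-1 OFF 96 h gave 85.3%, 81.7% and 61.6%, and for 96 h 99.6%, 99.3% and 95.6%.

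Within 1 library, low counts limit the 0 h values most: 2 and 19 stefin A UMIs set the width of every fold of the sum to 0 h.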
